A study of Mus musculus with 2 samples.

Results

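Slc15a2 and Cd200r2 are 2 genes of mouse chromosome 16, among 32285 gene rows, that were chosen because earlier results of these data showed more of their RNA in the knockout library. They were followed here in their own rows, in all accessibility peaks within 200 kb of them, and in their neighbours on the chromosome. The difference in RNA between the libraries chose them, so that difference is described and supports nothing. Slc15a2 (ENSMUSG00000022899) lies on the minus strand at chr16:36750177-36784962 in the mm10 build, with 14 annotated transcripts of up to 22 exons. Cd200r2 (ENSMUSG00000090176) lies on the plus strand at chr16:44867097-44915840, with 1 transcript of 6 exons, and 8.08 Mb separate both genes.

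The study sorted effector T cells of the gut, from colon and small intestine together, and isolated their nuclei. The mice were aged 26 to 33 weeks, and the sort took CD4+CD44+CD62L- cells that lacked CD8a, CD11c, CD45R and F4/80. RNA and open chromatin were read in the same nuclei. The control group was 1 library from Zfp362flox/flox mice, titled Zfp362+/+, and the knockout group was 1 library from CD4creZfp362flox/flox mice, titled Zfp362-/-. Both carried floxed Zfp362 alleles, and the control mice carried no Cre, so the CD4cre transgene and the deletion cannot be told apart. CD4cre is driven by Cd4 regulatory sequence, which is also active in thymic precursors of other T cells. For the number of animals, the series' description gives 7, which may be per genotype or in all, and their cells were pooled. With 1 library per genotype there was no test: every interval below covers counting error only, and animal, library and genotype cannot be told apart.

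Slc15a2 encodes PEPT2, a proton-coupled carrier that brings dipeptides and tripeptides into cells, best known from kidney and brain. Together with other members of its family it can carry fragments of the bacterial cell wall, which the sensors NOD1 and NOD2 detect inside cells. Cd200r2 belongs to a cluster of CD200 receptor genes. The inhibitory receptor of the family, Cd200r1, signals through the adaptor Dok2, while receptors such as Cd200r4 lack that inhibitory tail and pair with activating adaptors, among them Tyrobp (DAP12). Cd200 encodes the membrane ligand of Cd200r1.

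The start of each gene is shown because a peak was called over that of Cd200r2 in the knockout library alone, and over that of Slc15a2 in neither library. Both windows are RefSeq promoters on GRCm38.p6 and run 5′ to 3′ on the gene's strand from 250 bases before to 50 after the start. They are Slc15a2 at chr16:36784913-36785212 on the minus strand and Cd200r2 at chr16:44866847-44867146 on the plus strand. Capitals mark matches to the motifs named in the next paragraph.
Slc15a2: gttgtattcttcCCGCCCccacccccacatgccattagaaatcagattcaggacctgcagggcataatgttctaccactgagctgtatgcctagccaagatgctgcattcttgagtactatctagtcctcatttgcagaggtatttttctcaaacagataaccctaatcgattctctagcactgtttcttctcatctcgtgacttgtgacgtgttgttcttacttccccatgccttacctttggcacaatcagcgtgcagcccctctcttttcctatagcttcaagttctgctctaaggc
Cd200r2: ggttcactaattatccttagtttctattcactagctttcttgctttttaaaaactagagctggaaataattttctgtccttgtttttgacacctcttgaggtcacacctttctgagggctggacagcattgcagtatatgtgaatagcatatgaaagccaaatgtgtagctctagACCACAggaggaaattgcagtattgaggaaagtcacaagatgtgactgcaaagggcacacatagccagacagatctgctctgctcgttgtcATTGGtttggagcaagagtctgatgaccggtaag

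Neither start is rich in CpG: the window held 5 CpG pairs and 46.3% G or C in Slc15a2, and 2 CpG pairs and 42.0% in Cd200r2, against medians of 7 and 52.7% over 32851 RefSeq windows. The search covered both strands for the CCAAT box, the RUNX core TGTGGT, the AP-1 site TGACTCA, the TATA box TATAAA and the GC box GGGCGG. The last of these matched once in Slc15a2, at position -238 with the start base as 0, and 35.7% of all windows hold it. In Cd200r2, TGTGGT matched at -75 and CCAAT at 16. These are held by 16.8% and 37.4% of all windows, and none of the matches overlapped. The AP-1 site and the TATA box, held by 5.20% and 13.6% of windows, matched in neither gene.

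The files held 4223 control and 2391 knockout barcodes, with 10803590 and 9348999 UMIs (unique RNA molecules) and medians of 1996 and 2270 UMIs; 11 barcodes occurred in both. After filtering, 20 joint clusters were built without using both genes and 74 genes near them. The 6 clusters with Cd3d, Cd3e and Cd3g under 0.3333 of the median cluster level (at most 197 UMIs per 1000000 UMIs (CPM), against at least 549 in the other 14) were called Cd3-negative. They held 1167 of the 4176 kept control nuclei (27.9%) and 694 of the 2346 kept knockout nuclei (29.6%), so the label "T cell" did not hold for all sorted nuclei. ILC3 or LTi markers, of innate lymphocytes that also can carry CD4, were raised in 4 of these clusters. Zfp362 gave 78 UMIs in 3009 control and 50 in 1652 knockout Cd3-positive nuclei, 9.57 and 6.73 CPM, a log2 ratio of -0.50 (95% interval -1.05 to 0.02). In Cd3-negative nuclei it gave 19 and 9 UMIs (-0.57, -1.94 to 0.60). The counting of introns and of floxed exons is not given in the sources used here, so this count does not check the deletion. Cd4 stood at 250 and 730 CPM in Cd3-positive nuclei and at 282 and 279 in Cd3-negative nuclei.

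Slc15a2 RNA was higher in the knockout library among both kinds of nuclei. In Cd3-positive nuclei the control library held 888 UMIs and the knockout library 1865, or 109 CPM (102 to 116) against 251 CPM (240 to 263). Knockout over control, this is a log2 ratio of 1.20 (1.09 to 1.32). In Cd3-negative nuclei 246 and 435 UMIs gave 93.3 (82.0 to 106) and 228 (207 to 250) CPM, a log2 ratio of 1.29 (1.06 to 1.52). Levels of both libraries were therefore close between Cd3-positive and Cd3-negative nuclei, and the intervals of the libraries did not overlap in either. Of 12794 genes with at least 20 UMIs in Cd3-positive nuclei, 2.06% had a log2 ratio of 1 or more. In Cd3-negative nuclei 3.1% of 10609 genes did. Nothing is read from these shares about genes picked by that contrast.

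The carrier was read in more nuclei, not in a few nuclei with many molecules. A Slc15a2 UMI was found in 504 of 3009 Cd3-positive control nuclei (16.7%) and 675 of 1652 knockout nuclei (40.9%), at median depths of 2028 and 2493 UMIs. With every nucleus thinned to 1000 UMIs, which left out 107 and 63 nuclei, the shares were 8.68% (exact binomial interval 7.68 to 9.77) and 18.7% (16.8 to 20.7). Each positive thinned nucleus held 1.28 and 1.34 UMIs on average. Cd3-negative nuclei went from 14.1% to 31.1% unthinned and from 6.99% to 16.4% thinned. No nucleus held more than 5.29% of the Slc15a2 UMIs of its library and class. No cell type in these libraries is known to lack Slc15a2, and free RNA was not estimated, so no background share can be set beside these values.

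Depth differed between the libraries. Clusters with a median depth over 2 times that of all nuclei held 38.1% of control and 67.1% of knockout UMIs of Cd3-positive nuclei. Within Cd3-positive nuclei of 1000 to 2000 UMIs the Slc15a2 log2 ratio was 1.24 (0.98 to 1.51). It was 1.13 (0.91 to 1.35) at 2000 to 4000 UMIs and 1.25 (1.07 to 1.44) from 4000 UMIs. The ratio was thus similar over these depths. Below 1000 UMIs there were 10 and 8 UMIs, and the ratio was 0.41 (-1.15 to 1.89). In Cd3-negative nuclei the same depth ranges gave 1.54 (1.11 to 1.98), 1.01 (0.69 to 1.35) and 1.70 (1.15 to 2.33).

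The plot of Slc15a2 by cluster shows the level in each cell group and library. Knockout levels were above control levels in 19 of 20 clusters. In cluster 18, a small Tfh-like group, 30 control nuclei held 11 UMIs and 4 knockout nuclei none, with an upper limit of 347 CPM. For the 18 clusters with at least 5 UMIs in both libraries, the log2 ratio ran from 0.28 to 2.46 with a median of 1.40, and 14 of the intervals lay above 0. Control levels spanned 29.8 to 160 CPM and knockout levels 116 to 335. Clusters were built on the same nuclei that chose the genes, so these counts describe how evenly the difference was spread.

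**Figure D1:**
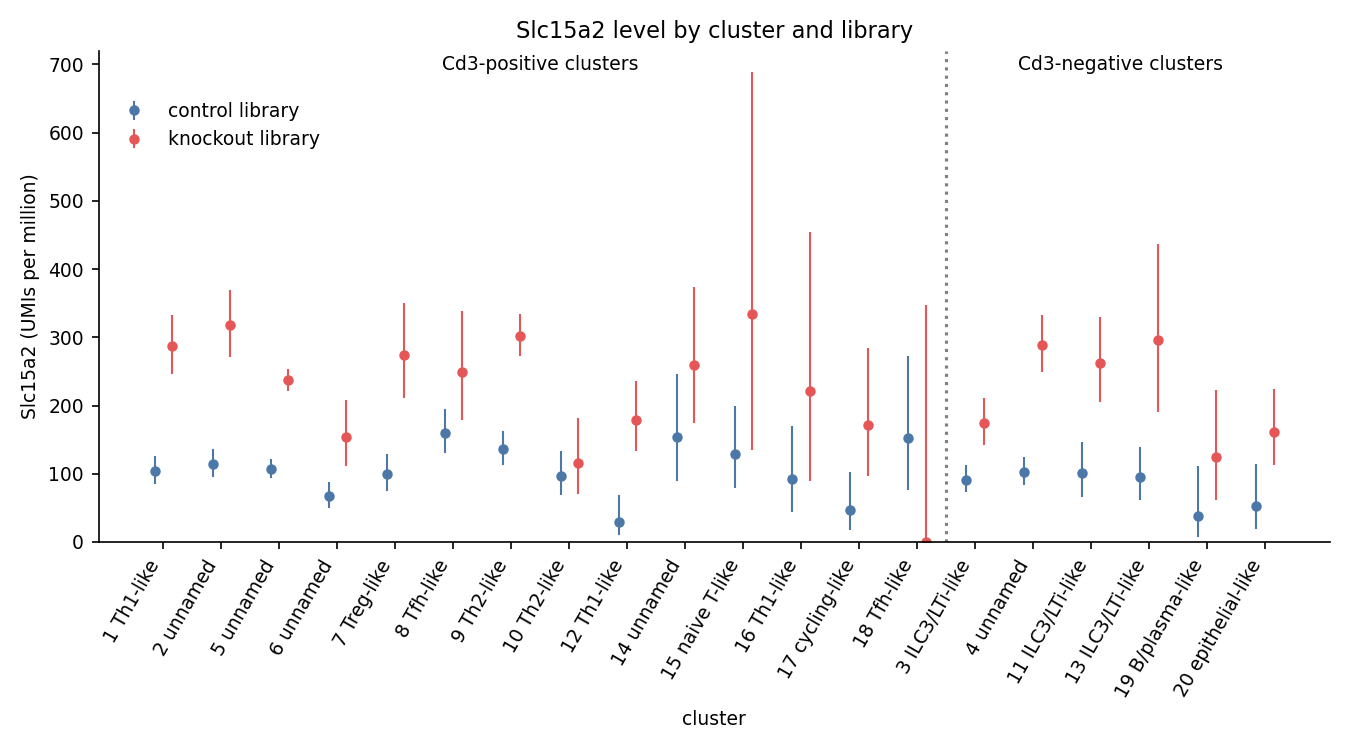
Slc15a2 in UMIs per 1000000 UMIs (vertical axis) in each of 20 joint clusters (horizontal axis, number and marker-based name) in the control and the knockout library. Points are sums over nuclei and bars exact Poisson 95% intervals; knockout points lie higher in all clusters but cluster 18.

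Among helper T-cell states, Th1-like nuclei (cluster 1, led by Gzma, Gcg and Il21) went from 104 to 287 Slc15a2 CPM. Their log2 ratio was 1.46 (1.10 to 1.82). Treg-like nuclei (cluster 7, with Foxp3 and Il10) went from 99.2 to 275, a log2 ratio of 1.47 (0.93 to 2.01). The unnamed cluster 2, with 10 of 12 regulatory T-cell markers raised, gave 114 and 318 (1.48, 1.14 to 1.82). Klrg1, Il1rl1 and Penk were among its leading genes, behind Mreg, A1cf and Gm3667. These groups of effector and regulatory nuclei thus had nearly the same ratio. The largest ratio, 2.46 (1.27 to 4.27), came from another Th1-like cluster, on 5 control and 52 knockout UMIs. Heat-shock genes were among its leading genes. The most Slc15a2 UMIs of any cluster, 226 and 864, lay in the unnamed cluster 5, at 107 and 238 CPM (1.14, 0.93 to 1.36). Cluster 5 had no marker of the T-cell state lists raised. Its Cd3 level, 549 CPM, was the lowest of the Cd3-positive clusters, and its median depth was 5458 UMIs.

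A pair of helper states stood lower in this range. Tfh-like nuclei (cluster 8, with Bcl6 and Sostdc1) had the highest control level, 160 CPM, against a knockout level of 250 (0.65, 0.08 to 1.18). Th2-like nuclei of ordinary depth (cluster 10, with Il5 and Il4) gave 97.1 and 116, a log2 ratio of 0.28 (-0.62 to 1.09). A deeper Th2-like cluster with Il13 and Pparg gave 136 and 302 (1.15, 0.85 to 1.46). Its first leading gene was Gcg, the glucagon gene, which is also among the leading genes of cluster 1. Where this RNA came from was not tested. The intervals of clusters 14, 15 and 16 also included 0, on 17 and 29, 20 and 7, and 10 and 7 UMIs. No difference between clusters was tested.

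The Cd3-negative clusters had the same direction. ILC3-like nuclei with Kit and Cnr2 (cluster 3) had 91.1 and 174 Slc15a2 CPM, a log2 ratio of 0.94 (0.51 to 1.37). Those with Ncr1, the NKp46 gene (cluster 11), had 101 and 262, a log2 ratio of 1.36 (0.72 to 2.07). An unnamed cluster had 102 and 289 (1.49, 1.14 to 1.86). It had 8 of 14 ILC3 markers raised but also 7 of 14 dendritic cell or macrophage markers, and its leading genes, such as H2-DMb2, Flt3, Adgre1 and Spi1, included none of its ILC3 markers. Nuclei like epithelial cells, 8 and 12 of them, had 6 and 35 UMIs, 52.2 and 161 CPM (1.53, 0.36 to 3.17). They also carried stromal markers. B or plasma cell-like nuclei had 3 and 11 UMIs.

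Markers of other cells differed between the libraries beside these values. Of 13 epithelial genes, 9 were detected in Cd3-positive nuclei of each library, summing to 42.8 and 76.5 CPM, with Krt19, Fabp2, Reg3b and Reg3g at 0. In Cd3-negative nuclei the same list summed to 4292 and 12902, while 4 of its 8 measured genes were higher and 4 lower, with a median log2 ratio of -0.07. Dendritic cell and macrophage genes summed to 622 and 840 in Cd3-positive nuclei, where 12 of 14 were detected in each library and C1qb and Clec9a stood at 0, and to 3614 and 4107 in Cd3-negative nuclei. B or plasma cell genes summed to 145 and 209 in Cd3-positive and to 2484 and 1561 in Cd3-negative nuclei, and T-cell genes to 688 and 839 in Cd3-negative nuclei. The part of these cells in the Slc15a2 values was not tested. With the ILC3-marked clusters alone, an alternative chosen after seeing the data, the Cd3-negative ratio of Slc15a2 was 1.32 (1.08 to 1.56). Fewer cells of a type and less RNA per cell are separate here only as far as clusters separate the types.

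Other peptide carriers of the family did not share the size of the difference. Slc15a3, a lysosomal carrier of peptides and histidine, had 59.1 and 73.9 CPM in Cd3-positive nuclei, a log2 ratio of 0.32 (0.14 to 0.50). In Cd3-negative nuclei it had 295 and 296 (0.01, -0.15 to 0.16). Slc15a4, a related lysosomal carrier, gave log2 ratios of -0.25 (-0.67 to 0.16) and -0.24 (-0.79 to 0.28). Slc15a1, the PEPT1 carrier of enterocytes, was near absent, with 2 UMIs in each library among Cd3-positive nuclei and 0 and 3 among Cd3-negative nuclei. Slc15a5 had none in either, with upper limits of 0.45 and 0.50 CPM in Cd3-positive nuclei.

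Genes of the NOD pathway, which senses what such carriers bring in, had a median near that of all genes. Single genes differed from it, the sensor Nod1 among them. Of 20 genes of NOD sensing, 18 had at least 20 UMIs in Cd3-positive nuclei. None passed a log2 ratio of 1 in either direction, where 2.06% and 1.22% of all genes did, and their median was 0.13 against 0.01 over all genes. The sensor Nod1 had 48 and 65 UMIs (0.57, 0.01 to 1.14) and Nod2 had 15 and 14. Slc46a3, a lysosomal carrier placed on this list, had 49 and 79 UMIs (0.82, 0.29 to 1.37). The kinase Ripk2, which both sensors recruit, stood at 82.6 and 80.8 CPM (-0.03, -0.19 to 0.13). Birc3, a ubiquitin ligase of the pathway, gave 606 and 804 CPM (0.41, 0.35 to 0.46), and the inhibitor Tnfaip3 1649 and 1993 (0.27, 0.24 to 0.31). In Cd3-negative nuclei none of 18 passed, where 3.1% of all genes lay above and 2.04% below, with a median of 0.11 against -0.01 over all genes. There Nod1 had 17 and 23 UMIs (0.89, -0.07 to 1.90) and Nod2 had 16 and 9 (-0.33, -1.73 to 0.90). Ripk2 had a log2 ratio of -0.10 (-0.36 to 0.16). Counts of genes past the fold say little for lists this short.

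For 14 genes of peptide handling inside cells, 11 were measured at that depth in Cd3-positive nuclei and had a median of -0.12. None lay above a log2 ratio of 1, against 2.06% of all genes. Pdzk1, a scaffold that binds PEPT2, lay below -1, as did 1.22% of all genes, with 17 and 7 UMIs (-1.09, -2.66 to 0.20). The surface peptidase Dpp4, which releases dipeptides, had 48.2 and 61.3 CPM (0.35, 0.15 to 0.54) and, in Cd3-negative nuclei, 9.10 and 17.3 (0.92, 0.12 to 1.75). In Cd3-negative nuclei 10 genes were measured, with a median of -0.13 and none past the fold, against 3.1% of all genes above and 2.04% below it.

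Cd200r2 RNA was scarce in both libraries and higher in the knockout library. In Cd3-positive nuclei 29 control UMIs stood against 77 knockout UMIs, 3.56 CPM (2.38 to 5.11) against 10.4 CPM (8.18 to 12.96). Intervals of the levels did not overlap, and the log2 ratio was 1.53 (0.91 to 2.21). They lay in 25 nuclei (0.831%) and 59 nuclei (3.57%). Thinned to 1000 UMIs, 7 nuclei (0.241%, 0.097 to 0.496) and 20 nuclei (1.26%, 0.770 to 1.94) kept a Cd200r2 UMI, each just 1. Cd3-negative nuclei held 6 and 13 UMIs, 2.28 and 6.81 CPM, a log2 ratio of 1.52 (0.09 to 3.26). Without the deep clusters it was 1.43 (-0.08 to 3.20), an interval that includes 0. Of the 13 knockout UMIs, 3 (23.1%) came from 1 nucleus.

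By cluster, Cd200r2 was higher in the knockout library in 12 clusters, lower in 4 and at 0 in both libraries in 4. Only the deep unnamed cluster 5 had at least 5 UMIs in each, 7 and 38, a log2 ratio of 1.57 (0.47 to 3.06). Th1-like nuclei of cluster 1 had 4 and 9 UMIs, those of the heat-shock cluster 1 and 8, and the deeper Th2-like nuclei 3 and 13. Ncr1-marked ILC3-like nuclei had 1 and 6. Treg-like nuclei of cluster 7 had none in 268 control and 98 knockout nuclei, with exact Poisson upper limits of 6.42 and 15.8 CPM. Cluster 2, with 10 of 12 regulatory T-cell markers raised, had 1 and 4 UMIs. Within nuclei of 1000 to 2000 UMIs the Cd3-positive log2 ratio was 2.33 (0.71 to 4.29), on 5 and 10 UMIs. At 2000 to 4000 UMIs it was 1.29 (0.13 to 2.51), on 12 and 16 UMIs, and from 4000 UMIs 1.28 (0.40 to 2.37).

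Nuclei with a Cd200r2 UMI had a Slc15a2 UMI in a larger share than the other nuclei, and they were also deeper. A Slc15a2 UMI was present in 9 of 31 control nuclei with a Cd200r2 UMI (29.0%, 14.2 to 48.0), against 15.9% of the others. In the knockout library it was present in 44 of 68 (64.7%, 52.2 to 75.9), against 37.2% of the others. Median depths were 2862 against 2002 UMIs in the control and 5592 against 2277.5 in the knockout library, and the part of depth in this was not tested.

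The neighbours of Cd200r2 in the receptor cluster are drawn beside it in the plot of the family. Cd200r4, an activating-type receptor 27.9 kb upstream, had 261 and 429 UMIs in Cd3-positive nuclei, 32.0 (28.3 to 36.1) and 57.8 (52.4 to 63.5) CPM, a log2 ratio of 0.85 (0.63 to 1.08). It had 27 and 34 UMIs in Cd3-negative nuclei (0.79, 0.03 to 1.58). The inhibitory Cd200r1 had 476 and 509 UMIs in Cd3-positive nuclei (0.23, 0.05 to 0.41) and 34 and 23 in Cd3-negative nuclei (-0.09, -0.93 to 0.71). Cd200r3, which lies 27.8 kb downstream and is known from mast cells and basophils, had 3 and 1 UMIs in Cd3-positive nuclei and none in Cd3-negative nuclei, with upper limits of 1.40 and 1.93 CPM. Markers of mast cells and basophils were nearly absent from Cd3-positive nuclei, at 0.98 and 0.54 CPM in sum with Mcpt1, Mcpt2, Ms4a2, Tpsb2 and Mcpt8 at 0. The ligand Cd200 had 61 and 57 UMIs in Cd3-positive nuclei (0.04, -0.51 to 0.58), and 31 and 43 in Cd3-negative nuclei (0.93, 0.24 to 1.65).

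**Figure D2:**
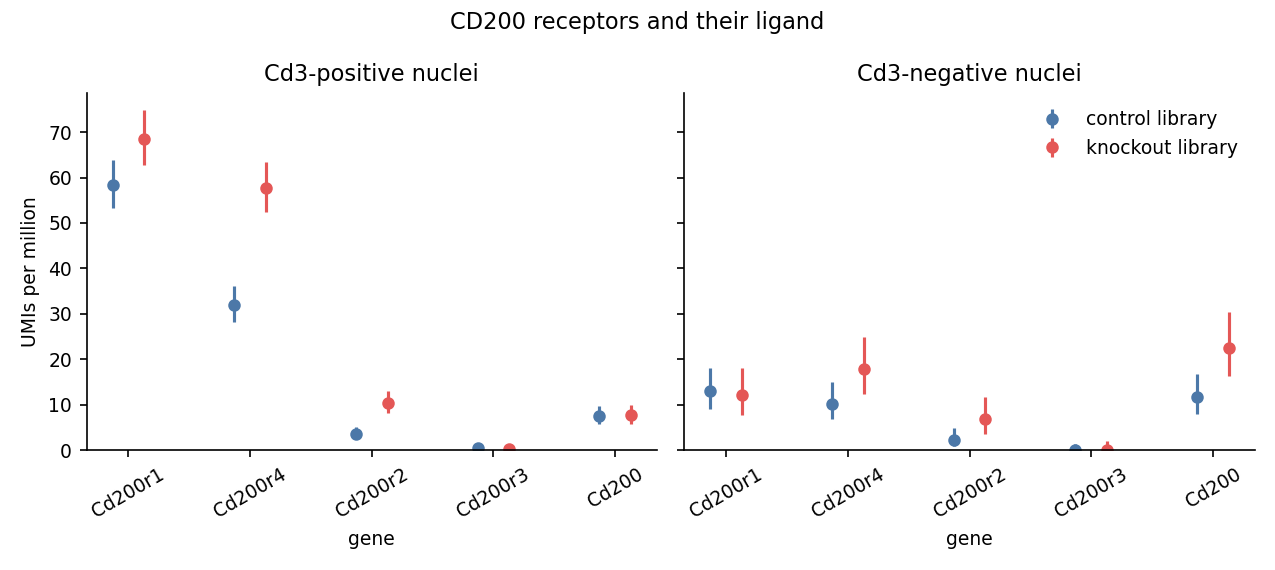
CD200 receptors and their ligand (horizontal axis) in UMIs per 1000000 UMIs (vertical axis), in Cd3-positive (left) and Cd3-negative nuclei (right) of each library. Points are sums and bars exact Poisson 95% intervals; Cd200r4 and Cd200r2 lie higher in the knockout library in Cd3-positive nuclei, and Cd200r1 levels lie closer together.

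Of all stretches of 50 bases in the Cd200r2 transcript, 61 of 1701 (3.59%) also occur in Cd200r4 and none in Cd200r1 or Cd200r3. A read inside such a shared stretch does not tell Cd200r2 from Cd200r4. How such reads were counted was not examined, and introns were not compared. No such stretch of Slc15a2 occurs in Slc15a1, Slc15a3 or Slc15a4. Cd200r4 was spread over clusters unlike Slc15a2. It gave 1 UMI in each library in Treg-like nuclei of cluster 7 (1.74 and 4.29 CPM). Cluster 2, with 10 of 12 regulatory T-cell markers raised, had 27 and 30 UMIs, 24.3 and 55.7 CPM (1.20, 0.40 to 2.01). Cd200r4 stood at 99.6 and 110 CPM in the Th2-like cluster with Il5. In Ncr1-marked ILC3-like nuclei it gave 63.4 and 87.3. The heat-shock Th1-like cluster had 5 and 28 UMIs, 29.8 and 96.6 CPM (1.58, 0.30 to 3.43). Cd200r1 had 125 and 128 CPM in cluster 2 (0.04, -0.40 to 0.46) and 32.1 and 87.1 in Th1-like cluster 1 (1.43, 0.78 to 2.12).

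Signalling partners of the family had medians near 0. Of 15 genes, 14 were measured in Cd3-positive nuclei, with a median of -0.08. None passed a log2 ratio of 1 in either direction, where 2.06% of all genes lay above and 1.22% below. For so short a list this count says little. Dok2, the adaptor of the inhibitory receptor, had 204 and 119 UMIs (-0.64, -0.98 to -0.31). The phosphatase Inpp5d (SHIP1) had 298 and 375 CPM (0.33, 0.25 to 0.41). Tyrobp, the activating adaptor, had 32 and 29 UMIs (-0.01, -0.78 to 0.76), and Hcst (DAP10) 207 and 166 CPM (-0.32, -0.43 to -0.21). In Cd3-negative nuclei 15 were measured with a median of -0.07. Tyrobp there had 54 and 23 UMIs (-0.75, -1.54 to -0.04), and Fcer1g, another adaptor, 508 and 391 CPM (-0.38, -0.51 to -0.25). The kinase Syk, with 18 and 28 UMIs (1.09, 0.20 to 2.04), was the 1 gene above a log2 ratio of 1, against 3.1% of all genes. None lay below -1, where 2.04% of all genes did.

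Other paired receptors, 14 genes of lymphocytes and myeloid cells, had 9 measured in Cd3-positive nuclei, a median of -0.09 and none past the fold, against 2.06% of all genes above and 1.22% below it. Lilrb4a, an inhibitory receptor, had 313 and 445 CPM there (0.51, 0.43 to 0.58), and 131 and 208 in Cd3-negative nuclei (0.67, 0.46 to 0.88). In Cd3-negative nuclei 8 were measured with a median of 0.21, and Lair1, with 9 and 14 UMIs (1.08, -0.21 to 2.49), was the 1 above the fold, against 3.1% of all genes. None lay below it, against 2.04%.

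The measured genes next to Slc15a2 had lower ratios. Of 11 other genes within 200 kb, 9 were measured in Cd3-positive nuclei, with log2 ratios from -1.51 to 0.68 and a median of -0.09. None lay above 1, against 2.06% of all genes, so this count of few genes says little. Eaf2, an elongation factor on the same strand whose end lies 7.92 kb before the start of Slc15a2, had 110 and 137 UMIs (0.45, 0.08 to 0.83). In Cd3-negative nuclei it had 87 and 55 (-0.19, -0.71 to 0.31). Cd86, a costimulatory ligand, had 369 and 286 (-0.23, -0.46 to -0.01) in Cd3-positive nuclei, and Ildr1, the nearest measured gene past the end of Slc15a2, 42 and 29 (-0.39, -1.14 to 0.32). Iqcb1, a cilium gene, gave 0.20 (-0.03 to 0.43), Golgb1, of the Golgi, 0.03 (-0.14 to 0.21), and Hcls1, an actin regulator of blood cells, -0.09 (-0.26 to 0.08). Fbxo40 had 13 and 10 UMIs (-0.23, -1.59 to 1.06), and 4930565N06Rik 19 and 28 (0.68, -0.20 to 1.62). Gm49662, with 23 and 7 UMIs (-1.51, -3.05 to -0.31), was the 1 neighbour below -1, where 1.22% of all genes were. In Cd3-negative nuclei 5 neighbours were measured, from -0.19 to 0.21.

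Around Cd200r2, 5 of 6 other genes within 200 kb were measured in Cd3-positive nuclei. Beside Cd200r4 and Cd200r1 these were Nepro, with 53 and 49 UMIs (0.02, -0.57 to 0.61), Gtpbp8, with 100 and 87 (-0.07, -0.50 to 0.36), and Ccdc80, with 12 and 9 (-0.26, -1.71 to 1.09). In Cd3-negative nuclei 3 were measured, with Gtpbp8 at 27 and 10 UMIs (-0.92, -2.18 to 0.12). Within 1 Mb, none of 24 genes near Slc15a2 and none of 21 near Cd200r2 reached a log2 ratio of 1 in Cd3-positive nuclei. Of all genes 2.06% did, so these counts of few genes say little. The highest of them stood at 0.99 near Slc15a2 and at 0.85 near Cd200r2. In Cd3-negative nuclei none of 18 and 1 of 19 did, against 3.1% of all genes. Over chromosome 16, 18 of 427 genes (4.22%) lay at or above 1 and 6 (1.41%) at or below -1 in Cd3-positive nuclei, against 2.06% and 1.22% of all genes. The members themselves are among the 18. So are the immunoglobulin light-chain genes Iglc1, with 24 and 233 UMIs, Iglc2, with 2 and 26, and Iglc3, with 6 and 16. In Cd3-negative nuclei 17 of 371 genes (4.58%) lay at or above 1 and 10 (2.70%) at or below -1. Over all genes these shares were 3.1% and 2.04%. What lies behind the shares of the chromosome was not tested.

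**Figure D3:**
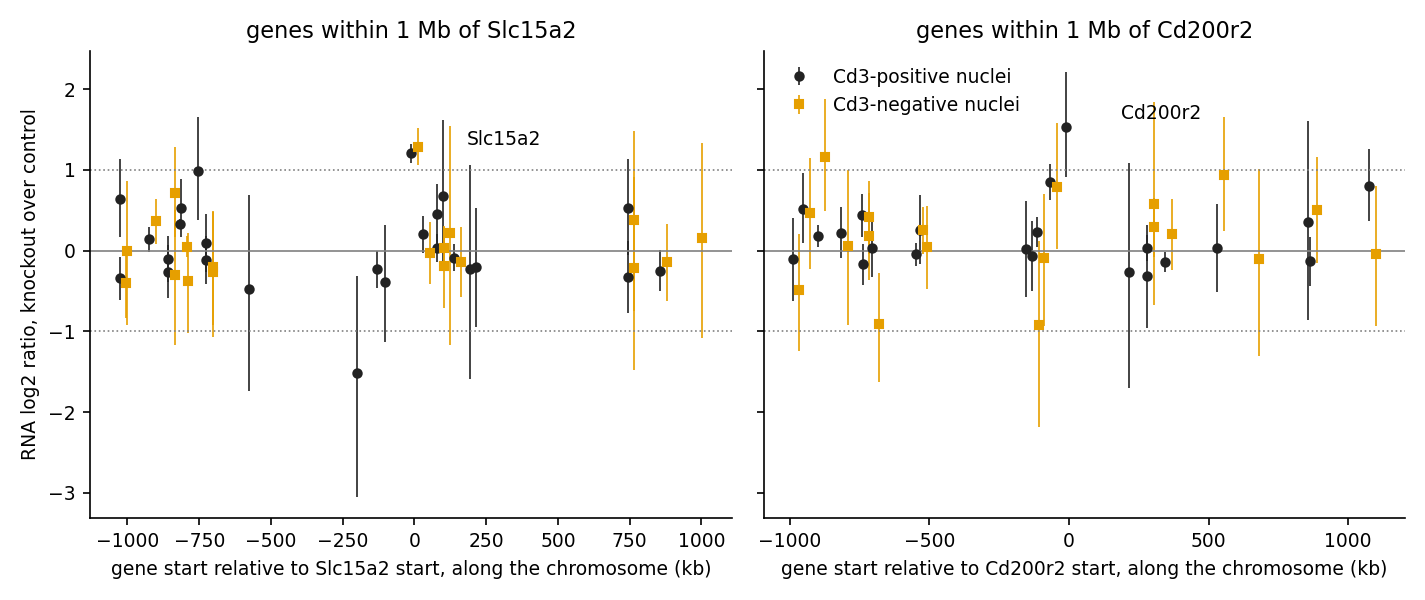
RNA log2 ratio of knockout over control (vertical axis) of each gene with at least 20 UMIs within 1 Mb of Slc15a2 (left) and Cd200r2 (right), by distance of its start along the chromosome (horizontal axis, kb; both kinds of nuclei are shifted apart slightly for display). Bars are 95% counting intervals and dotted lines mark log2 ratios of 1 and -1; Slc15a2 at 1.20 and Cd200r2 at 1.53 in Cd3-positive nuclei stand above their measured neighbours.

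Chromatin around Slc15a2 was read in 34 control and 33 knockout peaks within 200 kb of the interval that the deposited files give for the gene, the span of its transcript starts. Of these, 31 were shared, 3 were called in control nuclei alone and 2 in knockout nuclei alone. Their summed fragments were 4533 and 5040 in Cd3-positive nuclei, 390 and 376 per 1000000 fragments in shared peaks, a log2 ratio of -0.05 (-0.11 to 0.01). In Cd3-negative nuclei they were 1138 and 1120 (0.07, -0.05 to 0.19). No peak was called over the promoter window printed above in either library. The nearest peak lay 14.0 kb inside the gene.

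That peak, chr16:36770006-36770898, lies in the intron between exons 7 and 8 of the 22-exon transcript, 14.5 kb downstream of the start. In Cd3-positive nuclei 34 control and 81 knockout fragments fell in it, 2.92 (2.02 to 4.08) and 6.05 (4.80 to 7.52) per 1000000 fragments. The log2 ratio was 1.04 (0.45 to 1.67). It was the 1 peak of 31 at or above 1, where 2.18% of all shared peaks were, and none lay at or below -1, where 0.365% did. In Cd3-negative nuclei the peak held 16 and 19 fragments (0.33, -0.70 to 1.40), so no difference was detectable at this depth. There 1 of 16 measured peaks lay at or above 1, against 2.24% of all. It was a Cd86 promoter peak, chr16:36665478-36666283, with 7 and 16 fragments (1.23, -0.08 to 2.81), and stood at -0.17 (-0.61 to 0.27) in Cd3-positive nuclei. Another Cd86 promoter peak, chr16:36666478-36667365, had 11 and 7 fragments in Cd3-negative nuclei (-0.53, -2.17 to 0.94).

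Other peaks of the window lay nearer 0 or lower. Of those with at least 50 fragments in Cd3-positive nuclei, the next highest were the Gm49662 promoter, chr16:36598002-36598956, with 76 and 110 fragments (0.33, -0.10 to 0.77), and an exonic Ildr1 peak, chr16:36707741-36708619, with 29 and 42 (0.32, -0.39 to 1.07). The lowest was in a Cd86 intron, chr16:36631954-36632860, with 81 and 51 (-0.87, -1.41 to -0.35). It was followed by an intergenic peak, chr16:36674489-36675601, with 57 and 40 (-0.71, -1.34 to -0.11), and another, chr16:36602380-36603317, with 67 and 61 (-0.34, -0.86 to 0.18).

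**Figure D4:**
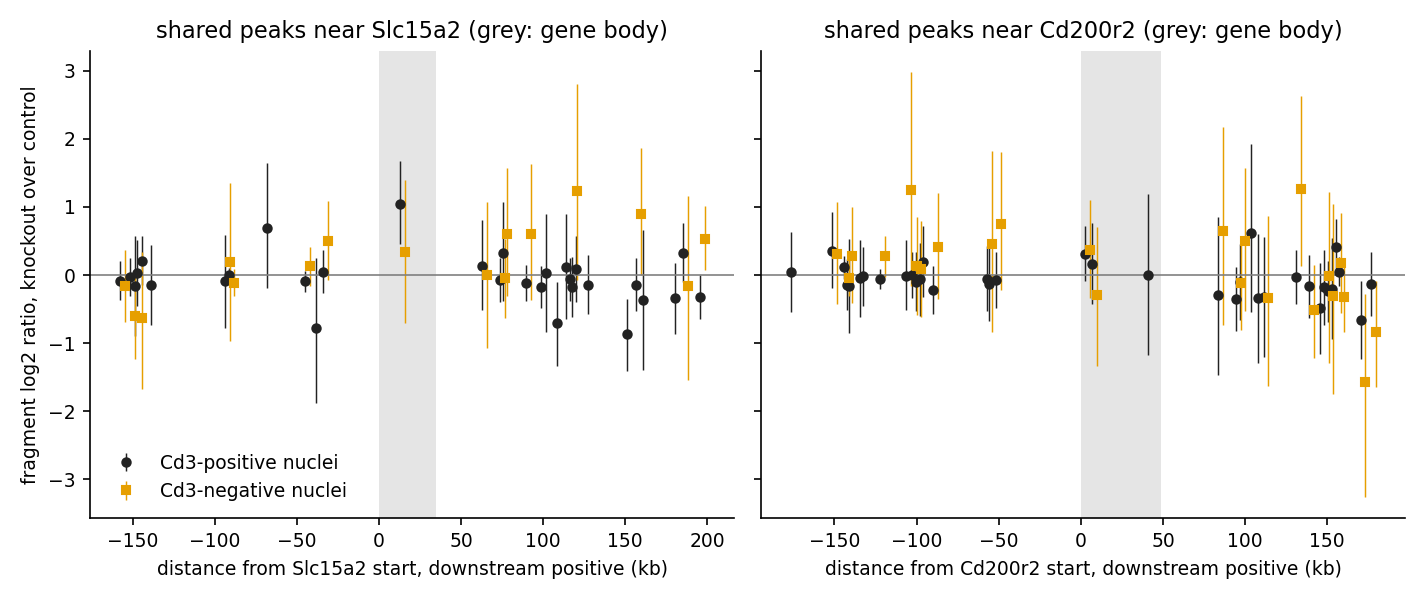
Log2 ratio of fragments, knockout over control (vertical axis), for shared peaks with at least 20 fragments within 200 kb of Slc15a2 (left) and Cd200r2 (right), by distance of the peak's centre from the start of the gene (horizontal axis, kb). Bars are 95% counting intervals; the peak inside Slc15a2 lies at 1.04 in Cd3-positive nuclei, and no Cd3-positive peak near Cd200r2 reaches 1 or -1.

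Within each library, nuclei with a fragment in the intronic Slc15a2 peak more often had Slc15a2 RNA. This relation was looked at after the peak had been seen. In the control library 23 of 49 such nuclei (46.9%, 32.5 to 61.7) had a Slc15a2 UMI, against 15.7% of the other 4127, at median depths of 2223 and 2003 UMIs. Thinned to 1000 UMIs, the shares were 30.6% (18.3 to 45.4) and 7.93% (7.11 to 8.82). In the knockout library 59 of 98 (60.2%, 49.8 to 70.0) had one, against 37.0%, at median depths of 3676.5 and 2276. Thinned, these were 33.7% (24.4 to 43.9) and 17.3% (15.7 to 19.0). Among nuclei with a fragment in this peak, the thinned shares of both libraries thus lay close together.

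The same share was taken for the other shared peaks of the window with at least 30 nuclei. Over 26 such peaks in the control library, the thinned share ran from 2.94% to 13.4% with a median of 9.38%. Over 27 in the knockout library it ran from 11.8% to 25.6% with a median of 17.9%. None of them reached the share of the intronic peak in its library. Nuclei are not replicates, and the peaks share nuclei, so no test was made.

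**Figure D5:**
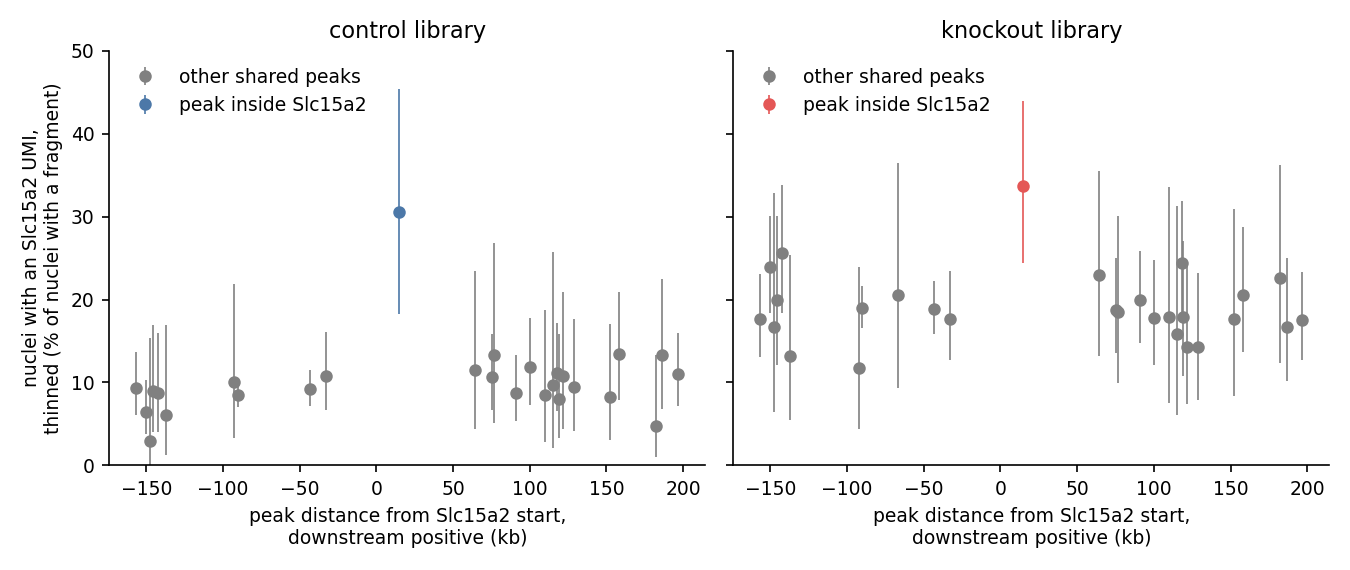
Percent of nuclei with a Slc15a2 UMI after thinning to 1000 UMIs (vertical axis), among nuclei with a fragment in each shared peak, by distance of the peak from the start of Slc15a2 (horizontal axis, kb), in the control (left) and knockout library (right). Only peaks with at least 30 such nuclei in the library are shown. Bars are exact binomial 95% intervals. The peak inside Slc15a2 stands at 30.6% and 33.7%, and the highest other peak shown at 13.4% and 25.6%.

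Cd200r2 had 42 control and 45 knockout peaks within 200 kb, of which 36 were shared, 6 called in control nuclei alone and 9 in knockout nuclei alone. Fragments in the shared peaks were 3764 and 4267 in Cd3-positive nuclei (-0.02, -0.09 to 0.04) and 1081 and 1032 in Cd3-negative nuclei (0.02, -0.10 to 0.15). None of the 36 passed a log2 ratio of 1 in either direction in Cd3-positive nuclei. Of all shared peaks, 2.18% lay at or above 1 and 0.365% at or below -1 there, so few would be looked for among 36. In Cd3-negative nuclei 2 of 24 measured peaks lay at or above 1, against 2.24% of all, and 1 at or below -1, against 1.46% of all.

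A peak over the printed Cd200r2 promoter window, chr16:44866614-44867364, was called in the knockout library alone. It held 7 fragments in Cd3-positive and 4 in Cd3-negative nuclei, 0.52 (0.21 to 1.08) per 1000000 fragments in the former. Peaks were called in each library separately and no count of this stretch in the control library was used here, so no ratio can be given. The first intron held a pair of shared peaks in Cd3-positive nuclei. One, chr16:44870452-44871379, 3.82 kb from the start, had 88 and 126 fragments (0.31, -0.09 to 0.72), and the other, chr16:44874933-44876137, had 44 and 57 (0.17, -0.42 to 0.77). Another peak of that intron, chr16:44876468-44877198, was called in the knockout library alone, with 10 fragments, and one of the next intron, chr16:44886215-44887076, in the control library alone, with 11. The peak over exons 3 and 4, chr16:44909031-44909982, had 13 and 15 fragments.

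Farther away, the highest shared peaks with at least 50 fragments were both intergenic. One, chr16:45023597-45024474, had 84 and 129 fragments in Cd3-positive nuclei (0.41, 0.01 to 0.83), and chr16:44716590-44717486 had 48 and 71 (0.36, -0.19 to 0.92). The lowest, chr16:45038401-45039342, had 63 and 46 (-0.65, -1.24 to -0.09), and 20 and 6 in Cd3-negative nuclei (-1.57, -3.25 to -0.28). It was followed by chr16:45013514-45014430, intergenic, with 45 and 37 (-0.48, -1.15 to 0.17), and chr16:44962514-44963503, in a Cd200r3 intron, with 83 and 75 (-0.35, -0.82 to 0.12).

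Across 16 joint clusters of at least 50 nuclei, both libraries summed, the genes whose log2 levels followed Slc15a2 most closely among 8063 were March7 (Pearson r 0.84), Myo1h (0.74), Gm26586 (0.72), Ikzf2 (0.71) and Elavl1 (0.70). For Cd200r2 they were Map3k11 (0.87), Gm36723 (0.86), Gprasp1 (0.86), Gpc1 (0.84) and Rmdn2 (0.83). Cd200r2 itself did not reach the 200 UMIs asked of the compared genes, and it stood at 0 in both libraries in clusters 7, 15 and 16. Its list thus rests on very few counts per cluster. March7, Ikzf2 and Elavl1 had log2 ratios between the libraries of 0.19, 0.19 and 0.06 in Cd3-positive nuclei. Those of Myo1h and Gm26586 were 0.42 and 0.45. These correlations describe 16 points that share libraries and depth. Since the libraries were summed and made up different shares of each cluster, they mix the library with the cell group.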

How the data were processed

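Single-nucleus RNA and accessibility were measured in 1 control and 1 knockout library of sorted intestinal CD4+ effector T cells. The deposited matrices hold whole-number counts, which the authors made with Cell Ranger ARC 2.0.1 on mm10, per the submitters' processing notes: UMI counts for genes and counts for peaks called in each library. The treatment of introns is not given in the sources used here. The depth per library is 10803590 and 9348999 UMIs.

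The members and gene lists were chosen with earlier results of these data known. Filters of at least 500 UMIs and 300 genes, and 10% mitochondrial UMIs or less, took out 47 and 45 barcodes. Scrublet marked 1 nucleus per library (0.0239% and 0.0426%) and was taken not to have worked, so doublets were kept. Both libraries were clustered together (scanpy 1.11.5, leidenalg 0.10.2; 2000 variable genes, 30 components, 15 neighbours, resolution 1.0) and named by at least 3 markers at a log2 ratio of 0.8, so the names are rebuilt. UMIs were summed per class and library. Ratios use a pseudocount of 0.5 and exact conditional 95% intervals, levels exact Poisson and shares Clopper-Pearson intervals, all for counting error only. A gene or peak was measured with at least 20 UMIs or fragments over both libraries, and past the fold at a log2 ratio of 1 or -1. Peak counts were 91.7% and 90.7% even, so fragments were taken per nucleus as the count divided by 2, rounded up. Peaks overlapping by 1 base were shared. Annotation was GENCODE vM21 of mm10; RefSeq windows of GRCm38.p6 matched both genes.

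Named are both genes, measured genes within 200 kb, members of the fixed lists, the 5 genes most like each member over clusters, peaks in a member or within 1 kb of its start, and the 3 highest and 3 lowest shared peaks with at least 50 fragments. Beyond this rule, clusters are described by marker and leading genes, and Iglc1, Iglc2 and Iglc3 were named from chromosome 16. The alternatives covered scaling (edgeR 4.0.16 TMM among them), filters, pseudocount, class rule, thinning, cluster weights, resolution and peak windows. The ratio and its interval were tried on simulated independent Poisson counts, the model that the interval assumes. This checks the calculation alone and covers no spread between animals, libraries or nuclei.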

Additional observations from a re-analysis of the deposited data

Results flagged for a closer look

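The genes Cd200r1, Eaf2 and Iqcb1 near the members had log2 ratios of opposite sign in Cd3-positive and Cd3-negative nuclei of the same libraries, and the difference itself was not tested. Cd200r1 stood at 0.23 and -0.09, a gap of 0.32. Eaf2, the neighbour before the start of Slc15a2, stood at 0.45 and -0.19, a gap of 0.64. Iqcb1 stood at 0.20 and -0.02, a gap of 0.23. The Cd3-negative interval included 0 for each of these genes, and so did the Cd3-positive interval of Iqcb1.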

How the results depend on the processing

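Under all 10 alternatives the Slc15a2 log2 ratio in Cd3-positive nuclei stayed between 1.18 and 1.24, and under 11 in Cd3-negative nuclei between 1.16 and 1.42. Cd200r2 ran from 1.20 to 2.32 and from 1.11 to 2.15; its Cd3-positive value was 2.32 (1.08 to 3.87) with nuclei thinned to 1000 UMIs, on 7 and 20 UMIs. Its Cd3-negative interval included 0 without the deep clusters or with ILC3-marked clusters alone, which left the same nuclei (1.43, -0.08 to 3.20), thinned to 1000 UMIs (1.11, -1.41 to 3.93) and at Leiden resolution 0.5 (1.30, -0.12 to 2.93). Of the 24 peak sums under alternatives, 20 moved by less than their counting error. With a window of 50 kb the sum gave 0.20 for Slc15a2 in Cd3-negative nuclei, and 0.13 and 0.22 for Cd200r2 in Cd3-positive and Cd3-negative nuclei. Without deep clusters the Cd200r2 sum in Cd3-positive nuclei gave 0.071. The intervals of these 4 sums included 0, and the cause was not tested. No value whose interval lay off 0 changed sign.

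Depth limits Cd200r2 most, since its UMIs per library and class number 6 to 77, and the Cd3-negative peaks, many of which hold under 20 fragments. No paired analysis was possible because each genotype has 1 library and no result comes from a test. With 1 library each, none was left out.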
